A study of Mus musculus with 3 samples.

Results

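The retinoid genes described here are 9 of the 32285 genes counted, taken by symbol: the binding proteins *Rbp4*, *Rbp7*, *Crabp1* and *Crabp2*, the uptake receptor *Stra6*, the retinaldehyde dehydrogenases *Aldh1a1*, *Aldh1a2* and *Aldh1a3*, and the retinaldehyde reductase *Dhrs3*. They were followed over the cell classes of inguinal white adipose tissue of 4-week-old mice, in 1 single-cell RNA-seq library for each of 3 genotypes. The wild-type library, the *Mgp*-KO library (global deletion of *Mgp*) and the *Pd*-KO library (*Mgp* flox/flox with *Pdgfra*-Cre) each held stromal vascular fraction (SVF) cells depleted of CD45-positive cells and pooled from mice of both sexes. *Pdgfra*-Cre acts in cells in which the *Pdgfra* promoter is or has been active, and no library of floxed mice without Cre was analysed here, so *Pd*-KO was set against wild-type and differs from it in the floxed alleles and the Cre as well. The labels give all libraries the same batch number. With 1 library per genotype there were no replicates: no p-value was computed, and all intervals are 95% intervals that cover counting error only. Those of levels and ratios take each UMI as independent, though the UMIs of a gene can be clumped in few cells.

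Vitamin A (retinol) travels in blood bound to RBP4, which liver and adipocytes secrete, and STRA6 is a membrane receptor that takes retinol up from RBP4. Inside the cell retinol is oxidized to retinaldehyde, and the ALDH1A enzymes oxidize retinaldehyde to retinoic acid, the ligand of the nuclear receptors RARα, RARβ and RARγ. DHRS3 works against this by reducing retinaldehyde back to retinol. CRABP1 and CRABP2 bind retinoic acid in the cytosol, and CRABP2 is known to hand it to the receptors, whereas RBP7 is a cytosolic retinol-binding protein known from endothelium and adipose tissue. Retinoic acid is known to restrain the differentiation of preadipocytes in culture.

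Barcodes with at least 2000 UMIs and at most 10% mitochondrial UMIs were kept, which left 10511 wild-type cells, 12575 *Mgp*-KO cells and 8819 *Pd*-KO cells, with medians of 12802, 6445 and 8269 UMIs. Of these, 7631, 11187 and 7110 were stromal. *Mgp* itself was at 509.9, 1.90 and 1.63 CPM (the UMIs of a gene scaled to a common total of the same cells) in the stromal cells of the 3 libraries (wild-type first, then *Mgp*-KO, then *Pd*-KO, the order of all triplets of values here), and at 576 CPM in pericyte-like cells of *Pd*-KO. Between 35 and 40 cell barcodes were shared by each pair of libraries. The file headers name Cell Ranger 4 for wild-type and 7.1.0 for both knockouts, whereas the submitters' notes name 6.1.1, and whether intronic reads were counted is not given in the sources used here. *Xist* and Y-linked UMIs called 22.2%, 43.3% and 23.2% of the cells female and 40.7%, 17.6% and 43.2% male, so the libraries differ in their mix of sexes. The other 37.2%, 39.1% and 33.6% had no sex call. Clusters were made without the 9 genes and the other retinoid genes and were named from marker lists, and 12 classes had at least 30 cells in every library. The 8 early adipocyte markers summed to 10656, 10925 and 7828 CPM in early adipocyte-like cells (201, 48 and 44 cells), the 5 capillary endothelial markers to 4387, 4355 and 5409 in capillary endothelial-like cells and the 7 *Col18a1* stromal markers to 1509, 2321 and 2831 in *Col18a1* stromal cells. The 7 immune markers summed to 14.3, 11.7 and 22.9 CPM over all cells.

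The 9 genes differed in where in the tissue they were highest. Of the 12 classes, *Rbp4* was highest in early adipocyte-like cells, *Rbp7* in capillary endothelial-like cells, *Crabp1* and *Stra6* in *Col18a1* stromal cells (a class of 3 clusters named from 7 markers, with *Col18a1*, *Sdc1* and *Fgf10* among these markers), *Aldh1a3* in interstitial progenitor-like cells (the *Dpp4* and *Pi16* class), *Aldh1a2* in Areg-like cells (the *F3* and *Gdf10* class, named after adipogenesis-regulating stromal cells) and *Dhrs3* in capillary endothelial-like cells. Luminal progenitor-like cells, which are outside the 12 classes, were above the interstitial progenitor-like cells for *Aldh1a3*. For these 7 of the 9 genes the highest of the 12 classes was the same in all 3 libraries, and for *Crabp2* and *Aldh1a1* it was not. The levels come from 3′ tag counts and depend on the gene, so they are compared between classes and libraries and not between genes.

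**Figure D1:**
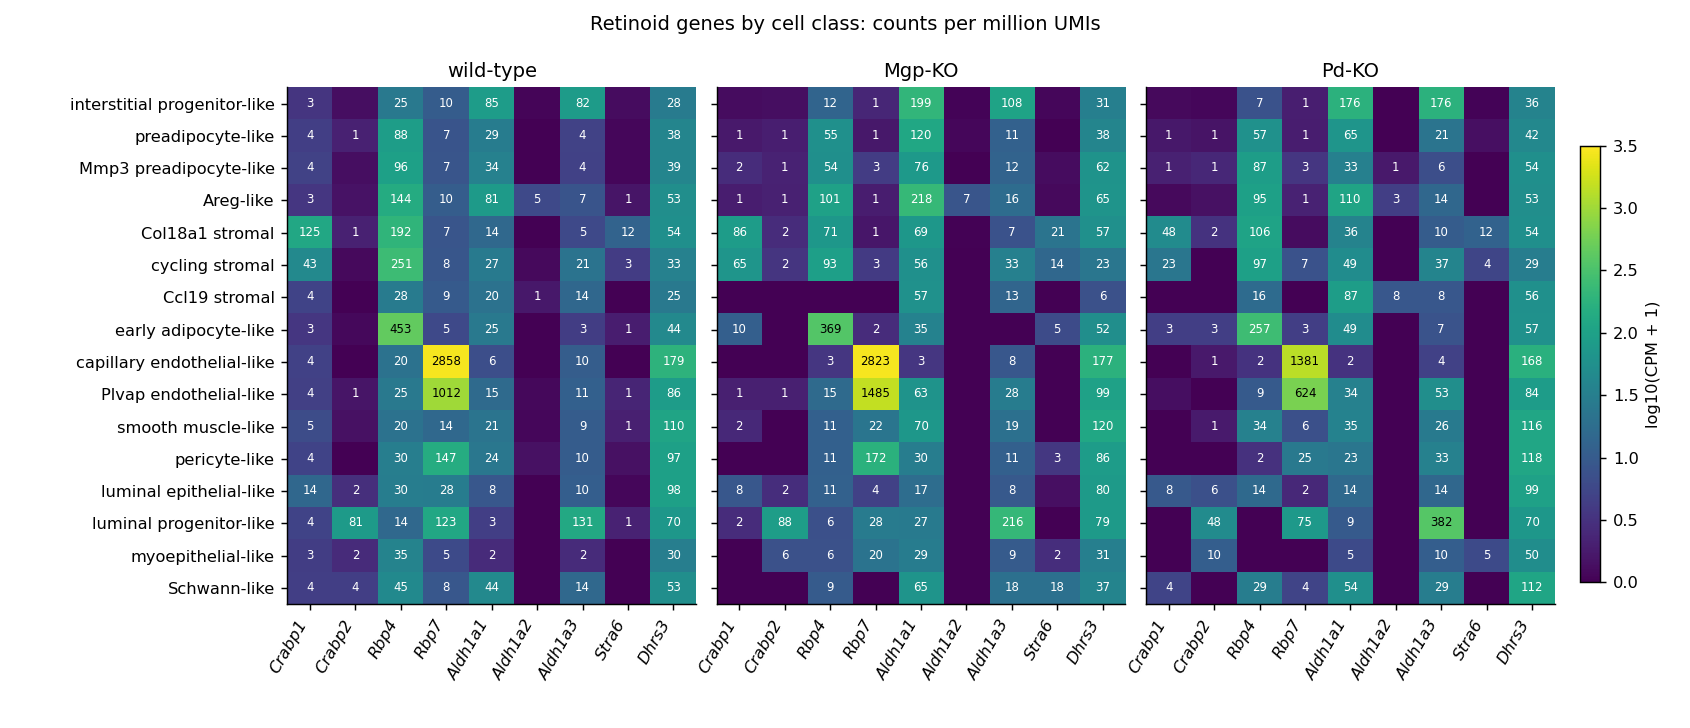
Level of each retinoid gene (columns) in each cell class (rows) of each library, in CPM with 1 added and on a log10 color scale. Classes with under 30 cells in a library are drawn as well, except neuron-like and immune-like cells. Of the 12 classes compared, *Rbp7* was highest in the endothelial-like rows in every library. *Crabp1* and *Stra6* were highest in the *Col18a1* stromal row and *Aldh1a3* in the interstitial progenitor-like row.

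*Rbp4*, the plasma carrier of retinol, was at 453 (435 to 471), 369 (321 to 422) and 257 (217 to 302) CPM in early adipocyte-like cells, which were the highest of the 12 classes in each library. In wild-type the cycling stromal cells followed at 251 (241 to 262), the *Col18a1* stromal cells at 192 (187 to 198) and the Areg-like cells at 144 (136 to 151) CPM, and these intervals did not overlap. The *Mmp3* preadipocyte-like cells at 96.3 (91.3 to 102) and the preadipocyte-like cells at 88.4 (84.1 to 92.9) CPM were neighbors whose intervals overlapped, and the interstitial progenitor-like cells were lowest of these stromal classes at 25.2 (23.6 to 27.0). Wild-type *Plvap* endothelial-like cells at 24.6 (20.6 to 29.2), capillary endothelial-like cells at 19.8 (14 to 27.3) and smooth muscle-like cells at 19.6 (16.3 to 23.3) CPM were as low or lower. In *Mgp*-KO the Areg-like cells at 101 (92.0 to 111) and the cycling stromal cells at 93.2 (80.5 to 107) CPM came next with overlapping intervals, before the *Col18a1* stromal cells at 71.2 (67.1 to 75.5). In *Pd*-KO the *Col18a1* stromal cells at 106 (98.0 to 114), the cycling cells at 96.7 (77.7 to 119), the Areg-like cells at 95.3 (86.3 to 105) and the *Mmp3* preadipocyte-like cells at 87.1 (76.4 to 98.9) CPM could not be ranked. The interstitial progenitor-like cells of the knockouts were at 12.4 (11.3 to 13.5) and 6.59 (5.84 to 7.40) CPM. After thinning to 2000 UMIs a cell, 52.2, 43.8 and 34.1% of early adipocyte-like and 24.2, 11.5 and 18.1% of *Col18a1* stromal cells held an *Rbp4* UMI, against 3.49, 0.971 and 0.581% of capillary endothelial-like cells. *Rbp4* lies at chr19:38116629-38125281, minus strand (all positions are of GRCm38, GENCODE M21).

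*Rbp7*, the cytosolic retinol-binding protein of endothelium, lies at chr4:149449687-149454978, minus strand. It was at 2858 (2781 to 2935), 2823 (2658 to 2996) and 1381 (1318 to 1446) CPM in capillary endothelial-like cells and at 1012 (986 to 1039.6), 1485 (1410.1 to 1563) and 624 (596 to 653) CPM in the *Plvap* endothelial-like cells. The capillary level was about the same in wild-type and *Mgp*-KO, and lower in *Pd*-KO. After each cell was thinned to 2000 UMIs, 80.6, 82.5 and 66.6% of the capillary cells had an *Rbp7* UMI, against 88.6, 87.4 and 77.6% before thinning at median depths of 4880, 3168 and 3258 UMIs. In interstitial progenitor-like cells, a stromal class, the thinned share was 1.55, 0.259 and 0.135% at median depths of 13782, 6498 and 9594 UMIs. Pericyte-like cells held 147 (132 to 164), 172 (133 to 220.1) and 25.2 (18.4 to 33.6) CPM, and 93.8, 78.1 and 45.7% of those UMIs lay in the 34.6, 20.3 and 25.2% of pericyte-like cells that also held a UMI of an endothelial marker. Whether such barcodes hold a pericyte with an endothelial cell attached was not tested. Doublets were called in 52 of 266, 13 of 79 and 40 of 317 pericyte-like cells. With clusters made without Harmony, the step that aligns the libraries, the pericyte cluster held 53, 67 and 294 cells. The wild-type members of the pericyte-like class thus depended on Harmony. Luminal progenitor-like cells held 215, 32 and 17 *Rbp7* UMIs. Of these UMIs, 48.8, 6.25 and 5.88% lay in cells with a UMI of an endothelial marker. The luminal progenitor-like cells without such a UMI were at 113, 28.7 and 87.4 CPM. Stromal cells were at 8.30 (7.77 to 8.85), 1.2 (0.972 to 1.47) and 1.05 (0.818 to 1.33) CPM, while the barcodes of 10 to 100 UMIs, taken as free RNA, were at 51.3 (39.1 to 66.2), 115 (92.7 to 141) and 53.5 (46.0 to 62.0) CPM. The stromal level of *Rbp7* in the knockouts was thus below that of free RNA, as it was in wild-type.

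*Crabp1*, a cytosolic retinoic acid-binding protein, and *Stra6*, the retinol uptake receptor, shared the *Col18a1* stromal class. *Crabp1* was at 125 (121 to 129.8), 85.6 (81.1 to 90.3) and 48.1 (42.8 to 53.8) CPM there, and this class held 78.0, 84.7 and 84.4% of all *Crabp1* UMIs. The cycling stromal cells followed at 43.2 (39.0 to 47.9), 65.4 (54.8 to 77.5) and 22.8 (14.1 to 34.9) CPM, and the luminal epithelial-like cells were at 13.9 (11.3 to 16.9), 8.0 (5.69 to 10.9) and 8.38 (4.19 to 15) CPM. Interstitial progenitor-like cells were at 2.51 (2.01 to 3.11), 0.321 (0.171 to 0.548) and 0.208 (0.0951 to 0.395) CPM. *Stra6* was at 12 (10.6 to 13.4), 21.1 (18.9 to 23.5) and 11.8 (9.23 to 14.8) CPM in the *Col18a1* stromal cells, with 80.0, 87.1 and 86.9% of its UMIs.

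Within the *Col18a1* stromal class both genes were concentrated in 1 of its 3 clusters, cluster 8. It made up 3.89% (3.47 to 4.35), 3.84% (3.5 to 4.22) and 1.46% (1.2 to 1.77) of the stromal cells. Its leading genes were *St6galnac3*, *Crabp1* itself, *Map2* and *Tnc*, and *Col18a1*, *Sdc1* and *Fgf10* were not among them. Without Harmony, the stromal cluster led by *St6galnac3*, *Hmcn1* and *Gramd1b* held 0, 1419 and 231 cells. The levels in cluster 8 are therefore of cells matched between the libraries by Harmony. *Crabp1* was at 398 (381 to 415), 267 (252 to 283) and 244 (215 to 276) CPM in cluster 8, at 137 (126 to 149), 36.2 (28.7 to 45.0) and 25 (16.5 to 36.3) in cluster 6 and at 23.1 (20.7 to 25.7), 12.7 (10.5 to 15.2) and 3.68 (2.06 to 6.08) in cluster 4. *Stra6* was at 52.1 (46.1 to 58.7), 60.1 (53.0 to 67.8) and 60.1 (46.2 to 76.8) CPM in cluster 8 and at 1.15 (0.372 to 2.68), 23.2 (17.4 to 30.5) and 7.40 (3.19 to 14.6) in cluster 6, and its intervals in cluster 8 overlapped between all 3 libraries. *Rbp4* was lowest of the 3 clusters in cluster 8, with 15.6 (12.3 to 19.4), 8.58 (6.04 to 11.8) and 3.81 (1.04 to 9.76) CPM against 205 (192 to 219), 107 (94.1 to 122) and 217 (190.4 to 247) in cluster 6 and 252 (244 to 261), 91.8 (85.7 to 98.2) and 103 (93.1 to 113) in cluster 4. Of the latter, cluster 4 was the higher in wild-type and cluster 6 in *Pd*-KO.

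**Figure D2:**
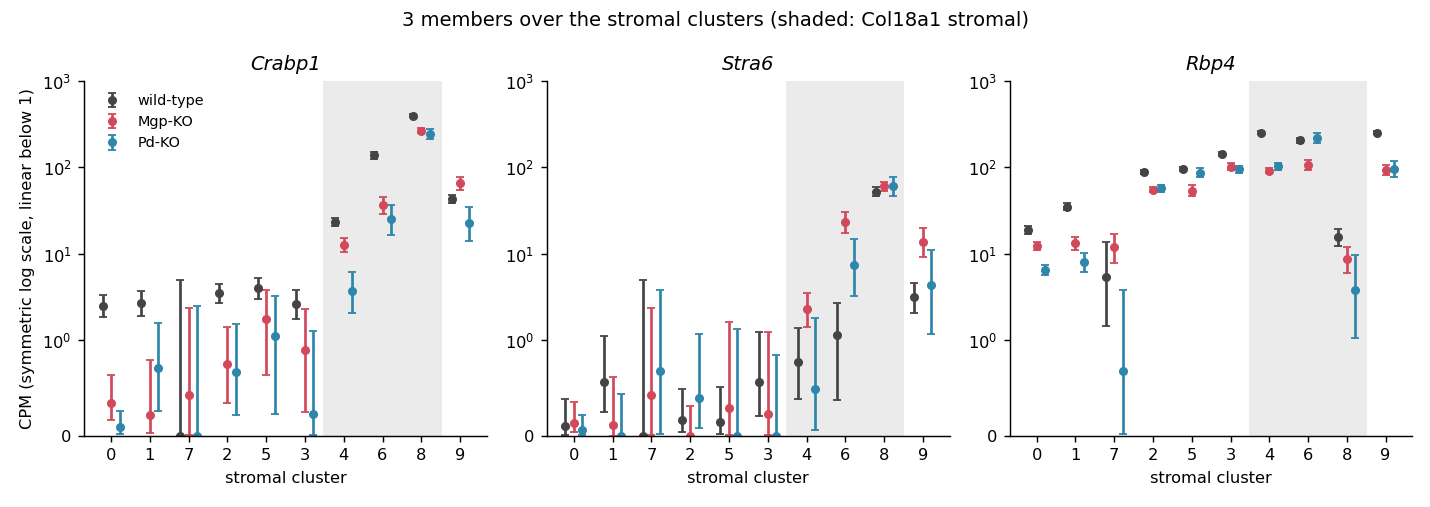
Levels of *Crabp1*, *Stra6* and *Rbp4* in stromal clusters of the 3 libraries (CPM with exact Poisson 95% intervals). The axis is logarithmic with a linear part at the lowest levels. Clusters 11, 12 and 14 are not drawn. *Crabp1* and *Stra6* peaked in cluster 8, where *Rbp4* was far lower than in clusters 4 and 6.

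The genes were also compared cell by cell after thinning to 2000 UMIs. Among *Col18a1* stromal cells with a *Crabp1* UMI, 13 of 133 cells (9.77%), 15 of 136 cells (11%) and 3 of 27 cells (11.1%) of the 3 libraries held a *Stra6* UMI. Among those without one, the shares were 19 of 1295 cells (1.47%), 60 of 1851 cells (3.24%) and 8 of 636 cells (1.26%). The *Rbp4* shares were 7 of 133 cells (5.26%), 5 of 136 cells (3.68%) and 1 of 27 cells (3.70%) of the cells with a *Crabp1* UMI, and 346 of 1295 cells (26.7%), 206 of 1851 cells (11.1%) and 131 of 636 cells (20.6%) of those without. The intervals of the cells with and without a *Crabp1* UMI did not overlap in wild-type and *Mgp*-KO, but in *Pd*-KO they did, for *Stra6* (2.35 to 29.2 against 0.545 to 2.46%) and for *Rbp4* (0.0937 to 19.0 against 17.5 to 24.0%). In capillary endothelial-like cells, thinned alike, a *Crabp1* UMI was in 0.952, 0 and 0% (upper limits 2.76, 3.52 and 1.07%) and a *Stra6* UMI in 0% of the cells of each library (upper limits 1.16, 3.52 and 1.07%), at the median depths given for them above, and the median depths of *Col18a1* stromal cells were 15978, 7235 and 9004 UMIs. The cells of each share come from 1 library and 1 class, so the shares are a description.

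*Crabp1* lies at chr9:54764748-54773110, plus strand and *Stra6* at chr9:58063788-58153996, plus strand, and *Stra6* overlaps *Ccdc33* on the minus strand and *Gm16131* on the plus strand, so its reads may be split with *Gm16131*. The 250 bases before the start of each gene were searched for the GC box GGGCGG, which reads CCGCCC on the other strand, and for the first form of the retinoid half-site, AGGTCA, and its second form, written AGTTCA, on both strands in RefSeq promoters of GRCm38.p6, in which 7 of the 9 genes were found, with 14 start sites. The upstream sequences of the pair of genes that share cluster 8 are shown, with GC boxes in capitals. For *Stra6* the start used is 1 of 4.
Crabp1 upstream: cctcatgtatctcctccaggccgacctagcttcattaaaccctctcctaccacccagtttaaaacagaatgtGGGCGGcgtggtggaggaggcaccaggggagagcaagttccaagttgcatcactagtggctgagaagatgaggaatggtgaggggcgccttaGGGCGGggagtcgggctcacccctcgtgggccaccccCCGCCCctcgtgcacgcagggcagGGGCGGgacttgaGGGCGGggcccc
Stra6 upstream: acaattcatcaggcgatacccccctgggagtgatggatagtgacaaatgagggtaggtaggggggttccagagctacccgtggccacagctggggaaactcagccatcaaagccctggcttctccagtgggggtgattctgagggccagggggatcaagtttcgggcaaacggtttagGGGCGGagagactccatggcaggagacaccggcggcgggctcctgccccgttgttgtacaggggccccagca
The first is chr9:54764498-54764747 and the second chr9:58129099-58129348, both on the plus strand. The *Crabp1* window held 5 GC boxes and the *Stra6* window 1. A GC box was present in 32.7% of all 32851 windows and in 6 of the 14 windows of the retinoid genes, and at least 3 were present in 8.47% of all windows. AGGTCA was present in 14% and AGTTCA in 11.8% of all windows, and neither in any of the 14, which says only that these letters are not in these windows.

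*Crabp2*, which carries retinoic acid to its receptors, lies at chr3:87948666-87953376, plus strand. It was low in most classes and highest in luminal progenitor-like cells of the mammary epithelium at 80.7 (67.9 to 95.2), 88.1 (71.8 to 107) and 48.3 (24.1 to 86.4) CPM, a class of 79, 126 and 23 cells and thus under 30 cells in *Pd*-KO. This class held 57.6, 53.7 and 19.6% of the *Crabp2* UMIs of each library. Stromal cells were at 0.629 (0.491 to 0.795), 0.885 (0.690 to 1.12) and 0.472 (0.321 to 0.670) CPM.

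Of the 3 retinaldehyde dehydrogenases, *Aldh1a1* and *Aldh1a3* had the interstitial progenitor-like cells as the highest of the 12 classes in wild-type and *Pd*-KO, whereas *Aldh1a2* had the Areg-like cells. *Aldh1a3* (chr7:66390890-66427517, minus strand) was at 82.4 (79.3 to 85.5), 108 (105 to 111) and 176 (172 to 179.9) CPM in interstitial progenitor-like cells, which held 72.9, 84.8 and 91.2% of its UMIs, and its level there was higher in each knockout than in wild-type with intervals that did not overlap. The luminal progenitor-like cells were higher in every library, at 131 (114 to 149), 216 (189.5 to 244) and 382 (306 to 471) CPM. They are left out of the 12 classes because of their cell number in *Pd*-KO. Areg-like cells were at 7.19 (5.68 to 8.99), 16.4 (12.8 to 20.6) and 13.7 (10.5 to 17.7) and preadipocyte-like cells at 3.85 (3.0 to 4.87), 11.1 (9.31 to 13.2) and 21.2 (18.1 to 24.8) CPM. After thinning, 15.3, 18.8 and 27.8% of interstitial progenitor-like and 0.635, 0.971 and 0.872% of capillary endothelial-like cells held an *Aldh1a3* UMI. Free RNA was at 11.3 (6.02 to 19.3), 63.3 (47.0 to 83.4) and 84.9 (75.3 to 95.4) CPM.

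*Aldh1a1* (chr19:20492715-20643465, plus strand) was at 85.0 (82.0 to 88.2), 199 (195 to 203) and 176 (172 to 179.7) CPM in interstitial progenitor-like cells and at 80.7 (75.4 to 86.3), 218 (205 to 233) and 110.4 (101 to 121) CPM in Areg-like cells, so these classes were neighbors with overlapping intervals in wild-type, while the interstitial progenitor-like cells were higher in *Pd*-KO and the Areg-like cells higher in *Mgp*-KO. *Aldh1a1* spans 151 kb and overlaps *C730002L08Rik* on the minus strand. Its near-identical neighbor *Aldh1a7*, to which reads could be assigned instead, was at most 0.198 CPM in stromal cells. The preadipocyte-like cells followed in the knockouts, at 120.3 (114 to 127) and 65.2 (59.6 to 71.2) CPM, against 28.6 (26.2 to 31.2) in wild-type, and the capillary endothelial-like cells were lowest at 5.89 (2.94 to 10.5), 2.60 (0.0657 to 14.5) and 2.29 (0.471 to 6.68). In cluster 7 of the interstitial progenitor-like class *Aldh1a1* was at 71.7 (53.9 to 93.6), 304 (282 to 327) and 481 (446 to 517) CPM. Cluster 7 (149, 367 and 343 cells) was led by *Sntg1*, *Gm8739* and *Ano3*. Its median depth was 4899 UMIs and its *Dcn* level 5764 CPM, against 9799 UMIs and 8761 CPM in cluster 0 of the class. Without Harmony, a stromal cluster led by *Gm8739* held 0, 36 and 397 cells. The part of depth and cell quality in the cluster 7 values was not tested. These levels are not relative to genes of like span, which changes the log2 ratios (defined with the genotypes): in preadipocyte-like cells from 1.94 and 0.92 to 0.98 and -0.15, and in Areg-like cells from 1.28 and 0.21 to 0.59 and -0.78. In *Pd*-KO the sign thus turned in both classes. No such value was computed for cluster 7. After thinning, interstitial progenitor-like cells with and without an *Aldh1a1* UMI had close shares with an *Aldh1a3* UMI. An *Aldh1a3* UMI was in 62 of 397 cells (15.6%), 309 of 1732 cells (17.8%) and 313 of 1175 cells (26.6%) of the cells with an *Aldh1a1* UMI and in 312 of 2051 cells (15.2%), 769 of 4052 cells (19.0%) and 944 of 3265 cells (28.9%) of those without.

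*Aldh1a2* (chr9:71215789-71296243, plus strand) was sparse, with 53, 33 and 15 UMIs or 4.95 (3.71 to 6.48), 7.40 (5.10 to 10.4) and 3.44 (1.92 to 5.67) CPM in Areg-like cells, which held 80.3, 82.5 and 78.9% of its UMIs. In interstitial progenitor-like cells it was at 0.118 (0.0322 to 0.303), 0.0986 (0.0269 to 0.253) and 0.0231 (0.000585 to 0.129) CPM.

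*Dhrs3*, which returns retinaldehyde to retinol, lies at chr4:144892827-144928209, plus strand. It was at 179 (161 to 199.7), 177 (137 to 224) and 168 (146 to 191) CPM in capillary endothelial-like, 109.8 (102 to 118), 120.1 (94.7 to 150.04) and 116 (98.5 to 136) in smooth muscle-like and 39.3 (38.2 to 40.5), 40.5 (39.1 to 41.9) and 40.3 (38.7 to 41.8) CPM in stromal cells, and the intervals of each of these classes overlapped between all 3 libraries. Pericyte-like cells were at 96.5 (84.0 to 110.4), 86.2 (58.9 to 122) and 118 (103 to 135), luminal epithelial-like cells at 97.6 (90.4 to 105), 80.2 (72.4 to 88.5) and 99.1 (82.8 to 118) and *Plvap* endothelial-like cells at 86.3 (78.7 to 94.6), 98.9 (80.3 to 120.5) and 84.2 (74.1 to 95.2) CPM, neighbors that could not be ranked against each other in *Mgp*-KO. Interstitial progenitor-like cells were at 27.9 (26.2 to 29.8), 31.3 (29.6 to 33.1) and 36.0 (34.2 to 37.8) CPM.

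Genes whose level moved most like that of a retinoid gene over the 12 classes were searched for in the 4704 genes that reached 50 CPM in a class, by the smallest of the 3 libraries' Pearson correlations of log2(CPM + 1). The 12 classes of a library share its depth, and the correlations are a description. For *Rbp7* they were *Rasip1* (0.98), *Gimap1* (0.97) and *Sox18* (0.97), for *Aldh1a1* *Gpc3* (0.95) and *Qpct* (0.94), for *Aldh1a3* *Akr1c18* (0.94), *Pi16* (0.94) and *Smpd3* (0.92), for *Rbp4* *Slc1a3* (0.87), *Rpl22l1* (0.82) and *Srm* (0.80), for *Dhrs3* *Eapp* (0.86), *Zfp467* (0.84) and *Syf2* (0.84) and for *Crabp1* *Sdc1* (0.80), *Zwint* (0.73) and *Bzw1* (0.72). *Crabp2*, *Aldh1a2* and *Stra6* reached 20 CPM in none of the 12 classes of at least 1 library and were not compared.

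The knockout libraries were then compared with wild-type over all stromal cells. A log2 ratio of CPM is given relative to the median of all genes with at least 100 UMIs over both libraries (shifts of 0.14 for *Mgp*-KO and 0.18 for *Pd*-KO), and past 2-fold means at least 1 in size. *Rbp4* was at 109 (107 to 111), 39.7 (38.3 to 41.1) and 32.3 (31.0 to 33.7) CPM, a log2 ratio of -1.60 (-1.66 to -1.55) in *Mgp*-KO and -1.93 (-2.0 to -1.86) in *Pd*-KO, past 2-fold lower in both though not in male cells of *Mgp*-KO (-0.99). The 8 early adipocyte markers moved with it: they summed to 388, 64.3 and 52.1 CPM in stromal cells, all 8 with a UMI, to 357, 114 and 144 in *Col18a1* stromal cells (7, 7 and 6 of 8, *Lep* or *Acvr1c* at 0 in each and *Cidec* also in *Pd*-KO) and to 36.4, 11.1 and 6.72 in interstitial progenitor-like cells (7, 8 and 7 of 8), and their part in the *Rbp4* values was not tested. *Rbp7* was lower past 2-fold in both, at -2.93 (-3.25 to -2.62) and -3.16 (-3.53 to -2.80), from the low stromal levels given above. The 7 endothelial markers summed to 29.4, 16.3 and 22.1 CPM in stromal cells, all 7 with a UMI, and 40.4, 22.1 and 50.7% of the stromal *Rbp7* UMIs lay in the 32.0, 8.97 and 14.8% of stromal cells with an endothelial UMI, whose part was not tested. *Crabp1* was at 32.3 (31.2 to 33.3), 19.2 (18.2 to 20.2) and 5.15 (4.61 to 5.73) CPM with ratios of -0.89 (-0.98 to -0.80) and -2.82 (-2.99 to -2.66), so that *Pd*-KO was past 2-fold and *Mgp*-KO was past it with each cell weighted equally (-1.09) and within each sex (values with the sexes). *Stra6* was at 2.99 (2.67 to 3.32), 4.65 (4.19 to 5.16) and 1.26 (1.01 to 1.57) CPM. Its ratio in *Mgp*-KO was 0.50 (0.28 to 0.72), but -0.27 in female cells. In *Pd*-KO the *Stra6* ratio was -1.42 (-1.78 to -1.06), past 2-fold lower unless male cells alone were taken (-0.89) or stromal clusters were weighted equally (0.067).

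Of the synthesis genes, *Aldh1a1* in both knockouts and *Aldh1a3* in *Pd*-KO were past 2-fold higher, each with exceptions. *Aldh1a3* was at 29.8 (28.8 to 30.8), 60.7 (59.0 to 62.5) and 121 (118 to 124) CPM, with ratios of 0.89 (0.82 to 0.95) and 1.85 (1.79 to 1.91), past 2-fold in *Pd*-KO but not with stromal clusters weighted equally (0.72). *Aldh1a1* was at 48.2 (46.9 to 49.5), 153 (150.01 to 155) and 137 (134 to 139.8) CPM, with ratios of 1.52 (1.48 to 1.57) and 1.33 (1.28 to 1.38), past 2-fold in both but not relative to genes of like span nor in female cells of *Pd*-KO (values with the span and the sexes). *Aldh1a2* had a ratio of -0.23 (-0.85 to 0.37) in *Mgp*-KO and fewer than 100 UMIs over *Pd*-KO and wild-type. *Crabp2* had 0.35 (-0.15 to 0.85) and -0.59 (-1.25 to 0.04), with opposite signs between the knockouts except with stromal clusters weighted equally (1.03 and 1.34) and in female cells (0.67 and 0.51). *Dhrs3* had -0.10 (-0.17 to -0.03) and -0.14 (-0.21 to -0.07). In all, 1 gene was higher and 2 were lower past 2-fold of 9 measured in *Mgp*-KO, where 15.3% of 14155 genes were higher and 4.72% lower. In *Pd*-KO 2 were higher and 4 lower of 8 measured, where 17.3% of 14007 genes were higher and 8.67% lower. The median ratio of the 9 genes was -0.10 in *Mgp*-KO and of the 8 genes -1.0 in *Pd*-KO, against 0 for all genes by construction. Both ratios use the same wild-type library. Set against each other, *Pd*-KO over *Mgp*-KO, *Crabp1* had a ratio of -1.93 (-2.11 to -1.76), *Stra6* of -1.92 (-2.28 to -1.57) and *Aldh1a3* of 0.96 (0.91 to 1.01).

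**Figure D3:**
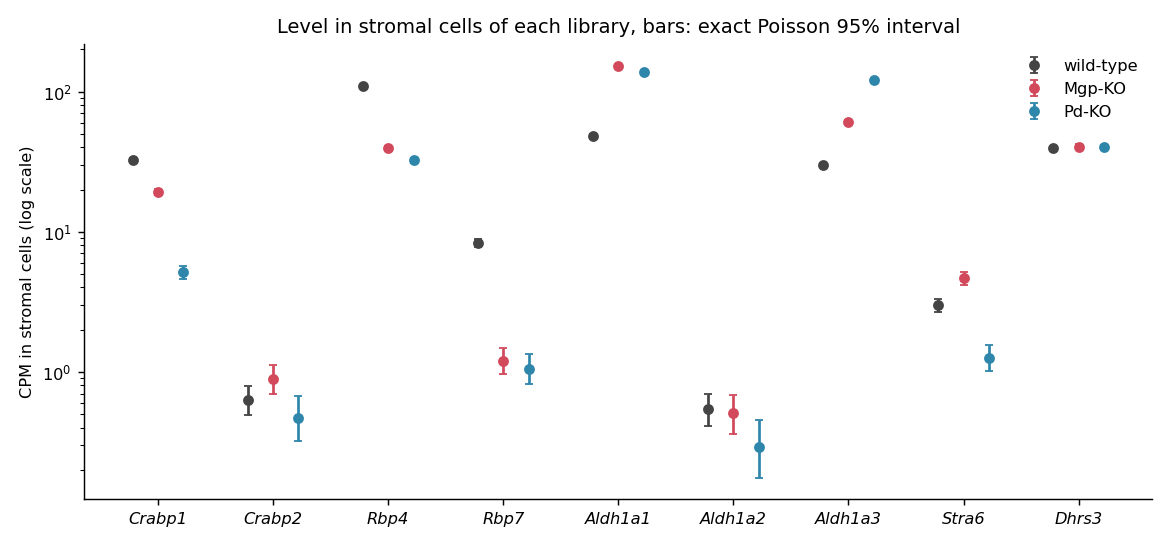
Level of each retinoid gene over all stromal cells of each library (CPM on a log10 axis, bars are exact Poisson 95% intervals, 1 library each). Past 2-fold, *Rbp4* and *Rbp7* were lower in both knockouts, *Crabp1* and *Stra6* lower and *Aldh1a3* higher in *Pd*-KO, and *Aldh1a1* higher in both. *Aldh1a1* was under 2-fold relative to genes of like span, and *Stra6* in *Pd*-KO was not lower with stromal clusters weighted equally.

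The ratios moved with the length of the gene. Among genes spanning 100 kb or more the median ratio was 1.19 in *Mgp*-KO and 1.41 in *Pd*-KO. Of these, 57.4% and 63.4% were past 2-fold higher, a group to which *Aldh1a1* belongs. Among genes spanning 3 to 10 kb the median ratio was -0.29 in *Mgp*-KO and -0.42 in *Pd*-KO. Of these, 7.37% and 14.5% were past 2-fold lower, a group that holds *Rbp4*, *Rbp7*, *Crabp1* and *Crabp2*. Taken relative to the running median of the 200 genes nearest in span, the ratio of *Aldh1a1* was 0.66 and 0.34, no longer past 2-fold. *Aldh1a3*, which spans 36.6 kb, had 0.79 and 1.73, *Crabp1* -0.63 and -2.44, *Rbp4* -1.35 and -1.56, and *Stra6* -0.0015 and -2.11. The header versions move with the genotype in the same way, so the counting of reads and the genotype cannot be told apart here.

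**Figure D4:**
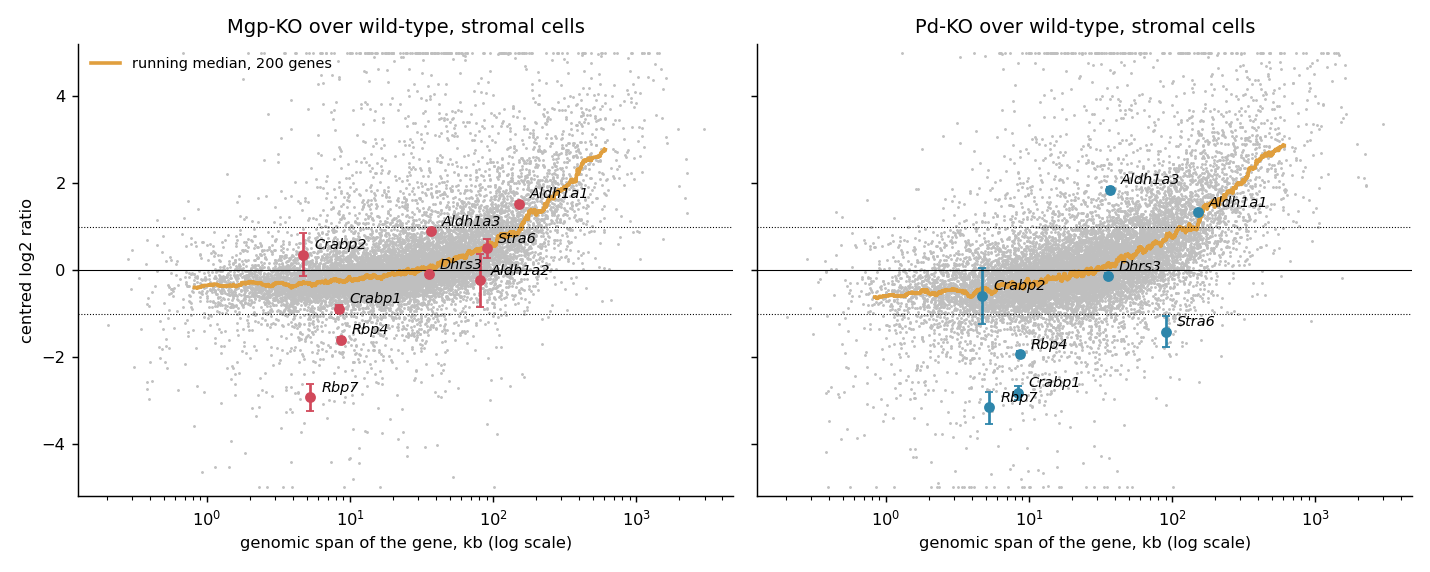
Log2 ratio of each gene over all stromal cells against its genomic span (kb, log10 axis) for *Mgp*-KO and *Pd*-KO over wild-type, with a running median over 200 genes as a line and the retinoid genes labelled. Ratios past 5 in size are drawn at 5. The line climbs with span, and *Aldh1a1* lies near it while *Rbp4*, *Rbp7* and *Crabp1* lie below it.

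The makeup of the stroma differed between libraries. Interstitial progenitor-like cells made up 32.1% (31.0 to 33.1), 51.7% (50.8 to 52.6) and 62.4% (61.3 to 63.6) and *Col18a1* stromal cells 18.7% (17.8 to 19.6), 17.8% (17.1 to 18.5) and 9.32% (8.66 to 10) of the stromal cells, so a stromal ratio holds both the share of a class and the level within it. Within *Col18a1* stromal cells the ratio of *Crabp1* was -0.73 (-0.82 to -0.64) and -1.60 (-1.77 to -1.42), the latter under 2-fold with clusters made without Harmony (-0.67). Within interstitial progenitor-like cells *Aldh1a3* had 0.24 (0.17 to 0.31) and 0.90 (0.84 to 0.96), and *Aldh1a1* 1.07 (1.01 to 1.14) and 0.85 (0.79 to 0.91), which was 0.29 and -0.19 relative to genes of like span. *Rbp4* had -1.61 (-1.71 to -1.52) and -1.08 (-1.20 to -0.96) within the *Col18a1* stromal class. Its *Pd*-KO value there was under 2-fold relative to genes of like span (-0.61), with total UMIs alone (-0.86), with cells (-0.95) or clusters (-0.78) weighted equally and in female cells (0.0033). Its *Mgp*-KO value was under 2-fold in male cells (-0.65). Within the Areg-like class *Rbp4* had -0.66 (-0.82 to -0.51) and -0.84 (-1.0 to -0.68), under 2-fold. In capillary endothelial-like cells *Rbp7* had -0.06 (-0.15 to 0.04) and -1.14 (-1.21 to -1.06), the latter under 2-fold relative to genes of like span (-0.83) and in cells of at least 5000 UMIs (-0.98). With stromal clusters weighted equally, the ratio of *Crabp1* was -0.82 and -1.32, and that of *Stra6* in *Pd*-KO 0.067, no longer lower.

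*Crabp1* and *Stra6* were higher in female than in male cells. In wild-type, *Crabp1* was at 80.1 (76.4 to 83.9) CPM in stromal cells called female and 13.2 (12.2 to 14.2) in those called male, and within *Col18a1* stromal cells at 259.7 (247 to 272) and 57.3 (52.0 to 63.1). In *Mgp*-KO the stromal values were 26.5 (24.8 to 28.4) and 4.33 (3.39 to 5.44) and in *Pd*-KO 9.04 (7.59 to 10.7) and 0.555 (0.323 to 0.889). *Stra6* was at 7.02 and 0.75 CPM in wild-type, at 6.45 and 1.48 in *Mgp*-KO and at 2.44 and 0.457 in *Pd*-KO, so the order of the sexes was the same in every library. The *Crabp1* ratio of *Mgp*-KO was larger within a sex, at -1.74 (-1.86 to -1.62) in female and -1.67 (-2.04 to -1.32) in male cells, and thus past 2-fold in both. That of *Pd*-KO was -3.31 (-3.57 to -3.05) and -4.75 (-5.54 to -4.06). *Rbp4* had -1.52 (-1.64 to -1.41) and -0.99 (-1.10 to -0.88) in female and male cells of *Mgp*-KO and -1.31 (-1.45 to -1.17) and -2.01 (-2.12 to -1.90) in those of *Pd*-KO. *Aldh1a1* in *Pd*-KO had 0.65 (0.52 to 0.77) in female and 1.59 (1.53 to 1.66) in male cells. *Stra6* in *Mgp*-KO had -0.27 (-0.58 to 0.04) in female and 0.91 (0.13 to 1.68) in male cells. Cells of a sex come from 1 pool of mice per library, so these values compare no animals. Stromal cells without a sex call (2679, 4287 and 2274) were left out of them.

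**Figure D5:**
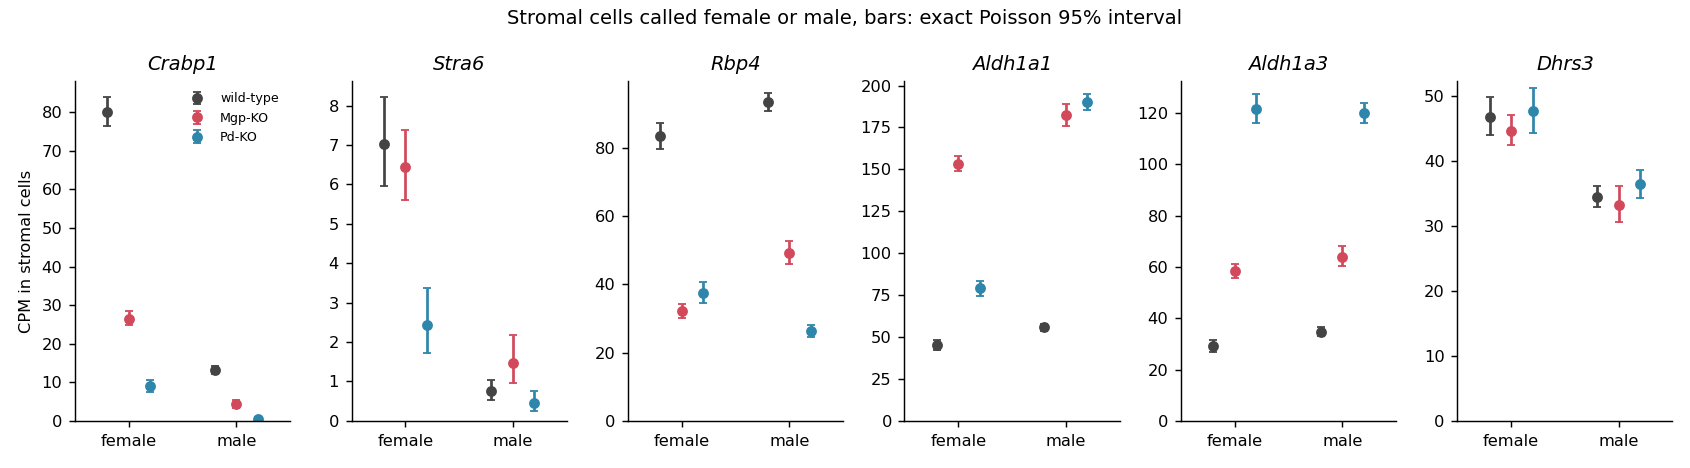
Stromal level of *Crabp1*, *Stra6*, *Rbp4*, *Aldh1a1*, *Aldh1a3* and *Dhrs3* in cells called female and male in each library (CPM, linear axis, bars are exact Poisson 95% intervals). *Crabp1* and *Stra6* were higher in female than in male cells of every library.

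A wider list of 70 retinoid genes without the 9 was measured the same way. In *Mgp*-KO 53 of them had enough UMIs, of which 6 were higher and 4 lower past 2-fold, with a median ratio of -0.05. In *Pd*-KO 52 had enough, of which 9 were higher and 6 lower, with a median of -0.18. The share of the list past 2-fold can be read against the shares of all genes given above. The genes lower in both knockouts with at least 20 CPM serve lipid handling: the fatty acid-binding protein gene *Fabp5* had ratios of -1.84 and -2.48, the fatty acid transporter gene *Cd36* -1.35 and -1.93 and *Lpl*, for lipoprotein lipase, -1.17 and -1.39. The genes higher in both were the retinoic acid receptor gene *Rarb* (2.39 and 2.97), the gene *Rora* of another nuclear receptor (2.31 and 2.54), the coactivator genes *Ncoa1* (1.78 and 2.06) and *Ncoa2* (2.09 and 2.60) and the homeobox gene *Meis1* (1.80 and 2.24), all of which span over 100 kb. Relative to genes of like span *Rarb* had 0.19 and 0.61, *Rora* -0.38 and -0.28, *Ncoa1* 0.39 and 0.40, *Ncoa2* 0.57 and 0.88 and *Meis1* 0.93 and 1.26.

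By role, counts past 2-fold are set beside the 15.3% higher and 4.72% lower of all genes in *Mgp*-KO and the 17.3% and 8.67% in *Pd*-KO, and the lists are small. The carrier and uptake genes counted 0 higher and 3 lower of 5 in *Mgp*-KO and 0 higher and 3 lower of 5 in *Pd*-KO. The 3 were *Fabp5*, *Cd36* and *Lpl*. The receptor partner genes counted 2 higher and 0 lower of 6 in *Mgp*-KO and 3 higher and 0 lower of 6 in *Pd*-KO, with a median ratio of 0.75 and 0.98, and of 0.26 and 0.08 relative to genes of like span. The ester storage and release genes counted 0 higher and 0 lower of 6 in *Mgp*-KO and 2 higher and 0 lower of 6 in *Pd*-KO, and the degradation genes 0 higher and 0 lower of 2 in *Mgp*-KO and 0 higher and 0 lower of 1 in *Pd*-KO. The receptor genes counted 2 higher and 1 lower of 10 in *Mgp*-KO and 2 higher and 1 lower of 10 in *Pd*-KO. This receptor list holds *Ppard*, *Rora*, *Nr2f1* and *Nr2f2* beside the *Rar* and *Rxr* genes. The retinol-oxidizing and -reducing genes counted 1 higher and 0 lower of 12 in *Mgp*-KO and 0 higher and 1 lower of 12 in *Pd*-KO, and the known targets of retinoic acid 2 higher and 0 lower of 15 in *Mgp*-KO and 3 higher and 1 lower of 15 in *Pd*-KO. Of the receptors, *Rara* was at 21.1, 21.1 and 19.3 CPM in stromal cells with ratios of -0.14 and -0.31, and *Rarg* at 22.5, 37.6 and 49.5 with 0.60 and 0.97. The retinol dehydrogenase gene *Rdh10* was at 10.5, 14.6 and 11.1 CPM with ratios of 0.34 and -0.09. None of these was past 2-fold, though *Rarg* in *Pd*-KO was relative to genes of like span (1.07). Of the genes for enzymes that degrade retinoic acid, *Cyp26b1* was at 10.2, 6.87 and 8.70 CPM in stromal cells with ratios of -0.71 and -0.40, and at 68.9 (58.4 to 80.7), 329 (273 to 392) and 292 (268 to 318) CPM in pericyte-like cells. The pericyte-like class held 266, 79 and 317 cells, but 53, 67 and 294 without Harmony. The part of this shift in the *Cyp26b1* levels was not tested. *Cyp26a1* had no UMI in stromal cells, which allows up to 0.0270, 0.0379 and 0.0457 CPM.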

How the data were processed

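The counts deposited by the authors are UMIs of 10x Genomics 3′ libraries for each barcode and gene, neither filtered nor normalized, with 1 library per genotype. Alignment by Cell Ranger is named in the notes and headers with different versions. The build is given as GRCm39 in the submitters' notes and otherwise as mm10, so positions are from GENCODE M21 (GRCm38). No other columns of values were left out.

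Counts were read in Python 3.11.15 with scipy 1.17.1 and pandas 2.3.3. Barcodes with at least 2000 UMIs and at most 10% mitochondrial UMIs were kept, scaled to 10000 UMIs and log-transformed. Clustering used 2000 variable genes, 30 principal components and Harmony over libraries in a Python version. Clusters were made with leidenalg 0.10.2 and igraph 0.11.9 (20 neighbors, Leiden resolution 0.5). The retinoid genes, *Mgp*, *Xist* and Y-linked genes were left out of the clustering. Stromal and adipocyte-like clusters were clustered again. For 1 alternative doublets were scored against simulated ones with scanpy 1.11.5, at an expected rate of 8%, and left out.

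Clusters were named from marker lists, with the naming score and thresholds set after the clusters had been seen, and some clusters stayed unnamed. Sex was called where a cell held UMIs of *Xist* alone (female) or of Y-linked genes alone (male). The members, lists and markers were chosen with earlier results of these data known.

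UMIs were summed per library and class. CPM has exact Poisson intervals, shares have exact Clopper-Pearson intervals, and for log2 ratios the exact binomial interval given the sum of both counts was used, all at 95% and for counting error only. Genes with at least 100 UMIs over both libraries were tested against the 2-fold limit after the median log2 ratio was taken off, and a class ratio was printed where each library had at least 150 UMIs. There were no replicates to test genotypes with. The wider genes that are named have at least 20 CPM in the stromal cells of a library and are past 2-fold in the same direction in both knockouts, or were listed whatever their values. Some of the genes that these rules name are not reported here. The ratio step was tested on simulated data. Alternatives covered scaling, cell weights, UMI, mitochondrial and count limits, doublets, Harmony, cluster weights, *Pdgfra*-positive cells, each sex and gene span, the last added after the data had been seen. Figures were drawn with matplotlib 3.10.9.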

Additional observations from a re-analysis of the deposited data

Results flagged for a closer look

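Several values stood apart and none was tested between libraries. The log2 ratio of *Rbp7* in *Mgp*-KO was 0.47 in *Plvap* endothelial-like cells and -2.93 over all stromal cells, opposite signs in different cell types, and stromal *Rbp7* lay below the level of free RNA. The log2 ratio of *Dhrs3* in *Mgp*-KO was 0.53 in *Mmp3* preadipocyte-like cells and -0.39 in luminal epithelial-like cells, and in *Pd*-KO 0.17 in interstitial progenitor-like and -0.25 in Areg-like cells.

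In barcodes of 10 to 100 UMIs, which the comparisons do not use, *Rbp7* was at 115 CPM in *Mgp*-KO against 51.3 in wild-type. *Aldh1a3* was there at 63.3 CPM in *Mgp*-KO and 84.9 in *Pd*-KO, against 11.3 in wild-type. The share of free RNA in the levels of low classes was not tested.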

How the results depend on the processing

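Counts of genes past 2-fold in stromal cells ranged over the alternatives from 2 to 4 retinoid genes in *Mgp*-KO, from 5 to 7 in *Pd*-KO, and from 7 to 15 and 10 to 18 genes of the wider list. The number of genes whose highest class was shared by the libraries was 4 in female cells, over fewer classes, against 6 or 7 otherwise. Signs turned in 3 values that were past 2-fold: *Stra6* over all stromal cells of *Pd*-KO was 0.067 with stromal clusters weighted equally, *Rbp4* in *Col18a1* stromal cells of *Pd*-KO was 0.0033 in female cells, and *Aldh1a1* in *Col18a1* stromal cells of *Pd*-KO was -0.13 relative to genes of like span. The causes were not tested. Values moved most often with the sex of the cells (34 values in female and 38 in male cells) and with gene span (38). Total UMIs in place of the median moved 34 values. A limit of at least 1000 UMIs and one of at most 5% mitochondrial UMIs moved 1 value each. Size factors from the median of ratios moved 0 values. For a pair of libraries these factors nearly repeat the median centring used throughout, so that 0 was fixed in advance. Pooled mice, 1 library per genotype and differing depth limit the low genes *Crabp2*, *Stra6* and *Aldh1a2*. No paired analysis was possible because each genotype has 1 library.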
